A study of Homo sapiens with 6 samples.

Results

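The genes described here encode the enzymes that methylate lysine 9 of histone H3 and the HP1 proteins that bind the methylated histone. They were chosen by name, as 10 of the 33841 genes listed in the count table, and fall into 3 groups. The G9a complex is represented by EHMT2 (G9a), EHMT1 (GLP1), WIZ and ZNF644, the other H3K9 methyltransferases by SUV39H1, SUV39H2 and SETDB1, and the HP1 readers by CBX5 (HP1α), CBX1 (HP1β) and CBX3 (HP1γ). All 10 passed the filter on low counts.

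RNA was sequenced from LN229 cells, an established human glioblastoma line, with 3 biological replicates of parental cells (WT, PARP3+/+) and 3 of cells in which both alleles of PARP3, a mono-ADP-ribosyltransferase, had been disrupted with a paired Cas9 nickase (PARP3-/-). All cells were grown in MEM with serum and gentamicin, and no group received a drug. The PARP3-/- lines of the study were grown from single-cell colonies, so differences between clones and effects of PARP3 loss cannot be told apart. The sources used here do not say which clone was sequenced, nor whether the 3 PARP3-/- libraries came from 1 clone or several. The study connects PARP3 with G9a, and the comparison asks whether the RNA of the H3K9 machinery itself differs between the genotypes.

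G9a and GLP form a heterodimer that places monomethyl and dimethyl marks on H3K9, mostly in euchromatin. WIZ and ZNF644 are zinc finger proteins. WIZ stabilizes the G9a and GLP proteins and, together with ZNF644, helps to keep G9a at chromatin. SUV39H1 and SUV39H2 make the trimethyl mark of constitutive heterochromatin, and SETDB1 makes it at retroelements and zinc finger gene clusters. HP1 proteins read H3K9 methylation through a chromodomain and compact or silence the chromatin they bind.

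Depth ran from 29692065 to 46010369 counts per library, and levels are given as CPM, the count scaled by the total of its library. The targeted gene PARP3 had 35.8, 22.1 and 24.6 CPM in WT replicates 1, 2 and 3 and 19.3, 21.8 and 19.2 CPM in PARP3-/- replicates 1, 2 and 3. All 3 PARP3-/- libraries lay below all 3 WT libraries, but the log2 fold change of -0.42 (SE 0.18) did not pass edgeR's quasi-likelihood test (adjusted p = 0.307) and passed narrowly with the replicate number as a block (-0.39, adjusted p = 0.0469). With replicate 1 of both genotypes left out of the blocked model it was -0.15 and was not called (adjusted p = 0.112, edgeR). The libraries are named by their labels. Of the glioma and glial markers, VIM reached 3736 to 4243 CPM, NES 708 to 1049, SOX2 28.4 to 46.2 and OLIG2 8.67 to 16.3. CD44 reached 464 to 599 CPM and S100B 75.7 to 240, whereas GFAP stayed at or below 0.420 CPM. Immune, endothelial and epithelial marker lists each summed to less than 1 CPM in every library. Neuron markers summed to 75.4 to 147.6 CPM, mostly from SYT1 (44.1 to 111.1 CPM). GAD1 (18.5 to 27.0 CPM) and SNAP25 (9.53 to 12.1 CPM) were also found in every library, while RBFOX3 stayed at or below 0.0337 CPM.

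None of the 10 genes differed between PARP3-/- and WT cells at an adjusted p under 0.05 in the model with genotype alone, in which 4.70% of the 17144 tested genes did (3.33% lower and 1.36% higher). At an unadjusted p under 0.05 there was 1 of 10 (CBX3), against 16.3% of all tested genes, and DESeq2, which called 5.93% of its genes, also called 0 of 10 with 1 at an unadjusted p under 0.05. When the replicate number was added as a block, CBX3 was called lower, and no other member was called. In that model 24.3% of all genes were called, 12.5% lower and 11.8% higher, so 1 of 10 is no excess. With replicate 1 of both genotypes left out of the blocked model, CBX3 and SUV39H2 were called lower and SETDB1 higher, where 29.9% of all genes were called (15.4% lower and 14.5% higher). That fit has few residual degrees of freedom, so its p-values, here and below, rest little on the spread between replicates of the gene itself. The median log2 fold change of the 10 genes was -0.04, beside -0.01 over all tested genes. Single members ranged from -0.34 for CBX3 to 0.14 for SETDB1. In bulk RNA of this kind, fewer cells with a transcript and less of it in each cell cannot be told apart.

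**Figure D1:**
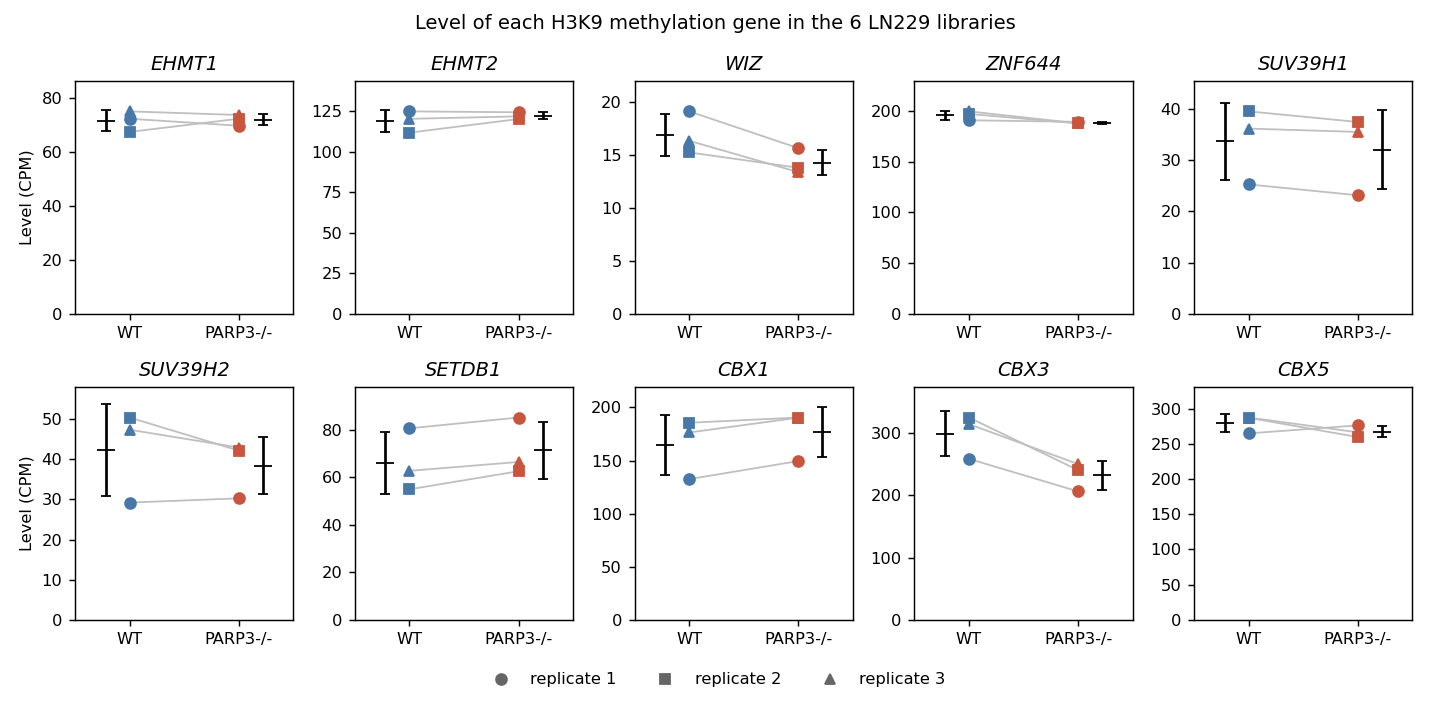
Level of each of the 10 genes in CPM (vertical axes from 0) in WT and PARP3-/- libraries, with same-numbered replicates joined by grey lines and the mean ± SD of each genotype drawn beside the points. CBX3 lay lower in all 3 PARP3-/- libraries (206 to 250 CPM) than in the WT libraries (258 to 325 CPM), and EHMT1 and EHMT2 overlapped.

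EHMT2, the gene for G9a (ENSG00000204371, hg38 chr6:31879759-31897687), was counted 124.8, 111.7 and 120.2 CPM in WT replicates 1, 2 and 3 and 124.3, 120.1 and 121.8 CPM in the PARP3-/- replicates. The groups overlapped completely, as the PARP3-/- libraries all sat between the lowest and the highest WT library. The log2 fold change was 0.06 (SE 0.07, adjusted p = 0.762, edgeR), with a 95% interval of 0.935 to 1.17 as a fold. Over the 6 libraries, the 3 tested genes whose centred log2 level followed that of EHMT2 most closely were DSCR3, CLCC1 and ZNF646, with a largest deviation of 0.03 on the log2 scale in any library.

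EHMT1, which encodes the partner GLP (chr9:137618963-137870016), gave 72.2, 67.3 and 74.9 CPM in WT and 69.6, 72.2 and 73.6 CPM in PARP3-/- cells. Here too the groups overlapped, with a log2 fold change of 0.03 (SE 0.07, adjusted p = 0.907, edgeR) and an interval of 0.907 to 1.16 as a fold. The EHMT1 to EHMT2 count ratio was 0.601 ± 0.0225 in WT and 0.588 ± 0.0247 in PARP3-/- (SD, n = 3; exact permutation p = 0.6). It was lower in PARP3-/- in each of the 3 same-numbered pairs, by less than the spread between replicates.

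WIZ (chr19:15419980-15449951) was the least abundant member. It was measured at 19.1, 15.3 and 16.4 CPM in WT and at 15.7, 13.8 and 13.4 CPM in PARP3-/- cells. The PARP3-/- library was the lower one in each of the 3 same-numbered pairs, although the groups overlapped because the first PARP3-/- library exceeded the second WT library. The log2 fold change of -0.22 (SE 0.11) had an adjusted p of 0.394 in edgeR's test with genotype alone. With the block it was -0.21 (SE 0.07, adjusted p = 0.0501, edgeR), just outside the threshold.

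ZNF644 (chr1:90915298-91022272) gave 190.9, 197.2 and 199.7 CPM in WT and 189.4, 187.9 and 187.9 CPM in PARP3-/- cells. Its ranges did not overlap, with every PARP3-/- library lower by a small margin, and the log2 fold change was -0.03 (SE 0.07, adjusted p = 0.918, edgeR). Non-overlapping ranges were found for 2 of the 10 genes, ZNF644 and CBX3, both lower in PARP3-/-, and for 23.1% of all tested genes, of which the lower direction made up 13.9% of the tested genes.

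SUV39H1 (chrX:48695554-48709012) was measured at 25.3, 39.6 and 36.2 CPM in WT and at 23.2, 37.5 and 35.6 CPM in PARP3-/- replicates 1, 2 and 3. The spread between replicates of one genotype was far larger than the distance between genotypes, and replicate 1 was the lowest library in both. The log2 fold change of -0.04 had an interval of 0.652 to 1.45 as a fold with genotype alone and of 0.888 to 1.05 with the block.

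SUV39H2 (chr10:14878820-14904315) behaved alike across libraries. It gave 29.2, 50.4 and 47.4 CPM in WT and 30.3, 42.2 and 42.9 CPM in PARP3-/- cells, so the groups overlapped and replicate 1 was again the lowest of each. Its log2 fold change was -0.11 (SE 0.24, adjusted p = 0.906, edgeR), and with replicate 1 of both genotypes left out and the block kept it was -0.17 (adjusted p = 0.0161, edgeR). The SUV39H1 to SUV39H2 count ratio was 0.805 ± 0.0534 in WT and 0.828 ± 0.0622 in PARP3-/- (SD, n = 3; exact permutation p = 0.6). SUV39H2 overlaps DCLRE1C in the gene models, by 6957 bases, and DCLRE1C itself had 858 to 1021 counts.

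SETDB1 (chr1:150926263-150964744) ran the opposite way across replicates. It was highest in replicate 1 of both genotypes, with 80.6, 54.9 and 62.7 CPM in WT and 85.1, 62.5 and 66.4 CPM in PARP3-/- cells. The groups overlapped, while the PARP3-/- library was the higher of each same-numbered pair. Its log2 fold change was 0.14 (SE 0.16, adjusted p = 0.787) with genotype alone, 0.14 (SE 0.05, adjusted p = 0.0608) with the block, and 0.17 (adjusted p = 0.0137) with the block and without replicate 1 of either genotype, all from edgeR. SETDB1 overlaps CERS2, an abundant gene (8800 to 14196 counts), over 4162 bases, and reads there may have been left out as ambiguous.

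CBX3, the gene of HP1γ (ENSG00000122565, chr7:26201162-26213356), was the member with the largest difference. Its level was 258.3, 324.6 and 314.0 CPM in WT replicates 1, 2 and 3 and 206.0, 240.2 and 249.9 CPM in PARP3-/- replicates 1, 2 and 3. All PARP3-/- libraries lay below all WT libraries. The means were 299 ± 35.6 CPM in WT and 232 ± 23.0 CPM in PARP3-/- (SD, n = 3), a difference of -0.34 on the log2 scale, or 0.790 as a fold (95% interval 0.633 to 0.987). CBX3 was not called with genotype alone (SE 0.14, adjusted p = 0.276, edgeR) and fell with the block (-0.34, SE 0.05, adjusted p = 0.000823, edgeR). Without replicate 1 of both genotypes the blocked value was -0.35 and passed as well.

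CBX3 starts head to head with HNRNPA2B1, a splicing factor gene, and their models overlap by 368 bases. HNRNPA2B1 gave 639, 851 and 895 CPM in WT and 588, 776 and 751 CPM in PARP3-/- cells, with overlapping groups. Its log2 fold change of -0.15 was smaller than that of CBX3 and did not pass with genotype alone (adjusted p = 0.808, edgeR) or with the block (adjusted p = 0.0980). Without replicate 1 of both genotypes the block called HNRNPA2B1 lower as well (-0.16, adjusted p = 0.0210, edgeR). A test of the difference between both genes was not made. The 7 CBX3 pseudogenes listed summed to at most 0.703% of the CBX3 count in any library. Whether reads shared with them or with HNRNPA2B1 take part in the CBX3 difference was not tested.

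CBX1, the gene of HP1β (chr17:48070052-48101521), gave 132.5, 185.6 and 176.5 CPM in WT and 149.5, 190.5 and 190.4 CPM in PARP3-/- cells. The groups overlapped, and the PARP3-/- library was the higher of each same-numbered pair. The log2 fold change was 0.13 (SE 0.17, adjusted p = 0.824) with genotype alone and 0.13 (SE 0.05, adjusted p = 0.0807) with the block, by edgeR.

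CBX5, the gene of HP1α (chr12:54230940-54280133), was measured at 265.0, 287.2 and 287.6 CPM in WT and at 276.4, 259.8 and 266.5 CPM in PARP3-/- cells. Its groups overlapped, with a log2 fold change of -0.04 (SE 0.08, adjusted p = 0.899, edgeR) and an interval of 0.852 to 1.11 as a fold. The splicing factor gene HNRNPA1 lies 59 bases away on the other strand and had a log2 fold change of -0.18 (adjusted p = 0.369, and 0.0510 with the block, edgeR). HNRNPA1 gave 258.6, 220.9 and 221.6 CPM in WT and 205.0, 194.6 and 208.0 CPM in PARP3-/- cells. Every PARP3-/- library thus lay below every WT library, as for 13.9% of all tested genes.

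**Figure D2:**
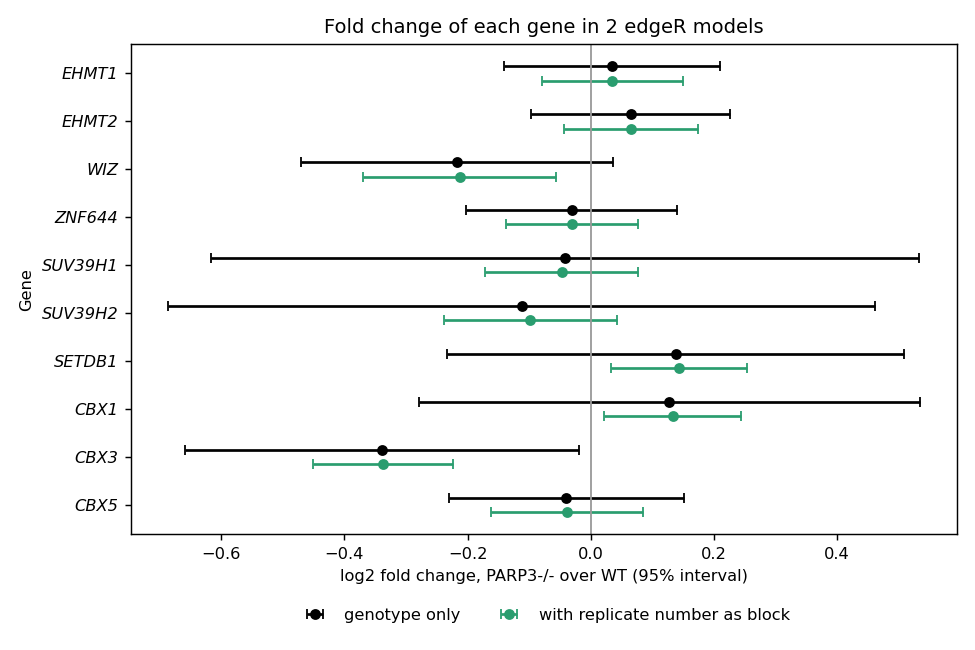
Log2 fold change of PARP3-/- over WT (horizontal axis) with 95% interval for each gene, in the edgeR model with genotype alone (black) and with the replicate number as a block (green). Both models gave CBX3 an interval below 0, and the block shortened the intervals of SUV39H1, SUV39H2, SETDB1 and CBX1 most.

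Within libraries, the proportions of the HP1 genes lay apart between the genotypes in both ratios that include CBX3. CBX1 counts divided by CBX3 counts, a ratio that library size does not affect, were 0.513, 0.572 and 0.562 in WT and 0.726, 0.793 and 0.762 in PARP3-/- cells. Every PARP3-/- ratio was above every WT ratio, by 0.50, 0.47 and 0.44 on the log2 scale in the same-numbered pairs. The means were 0.549 ± 0.0315 in WT and 0.760 ± 0.0338 in PARP3-/- (SD, n = 3), a 1.39-fold difference. Its two-sided exact permutation p of 0.1 is the smallest that 3 against 3 libraries can give (0.25 after Benjamini-Hochberg adjustment over the 5 ratios examined), so this test cannot take it past the threshold.

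CBX5 over CBX3 also separated the genotypes, at 1.03, 0.885 and 0.916 in WT and 1.34, 1.08 and 1.07 in PARP3-/- cells, a 1.23-fold difference (exact permutation p = 0.1, adjusted 0.25). Both ratios share the CBX3 count and are not independent of each other. The CBX5 to CBX1 ratio, which leaves CBX3 out, overlapped between genotypes at 1.73 ± 0.241 in WT and 1.54 ± 0.270 in PARP3-/- (SD, n = 3; exact permutation p = 0.4), although it was lower in PARP3-/- in each of the 3 same-numbered pairs. Of all counts on the 3 HP1 genes, CBX3 took 40.2% ± 0.687 in WT and 34.2% ± 1.45 in PARP3-/- cells, while CBX1 took 22.1% ± 1.63 and 26.1% ± 2.11 (SD, n = 3).

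**Figure D3:**
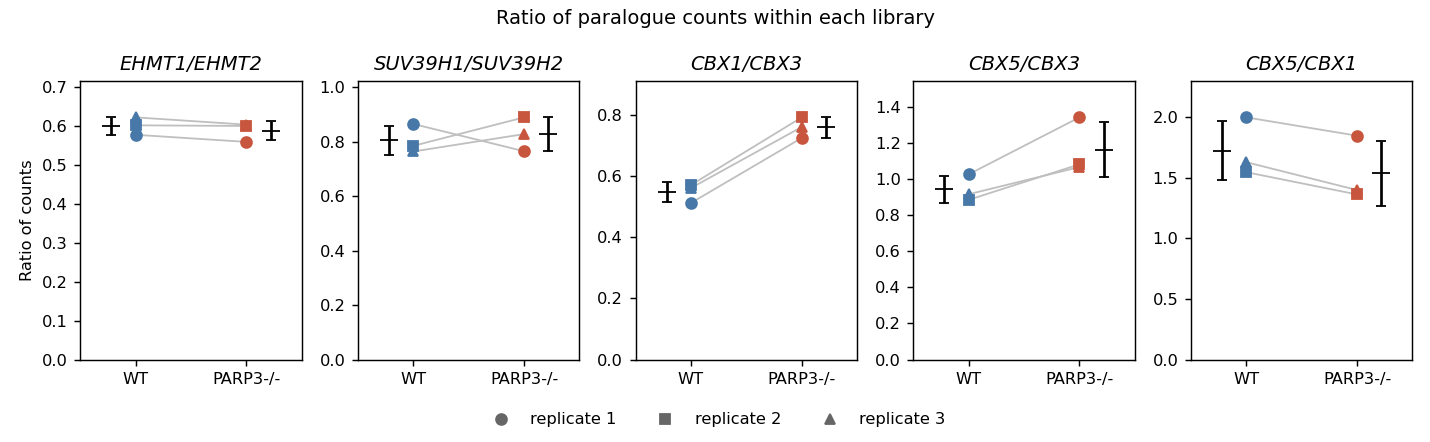
Ratio of the counts of paralogous genes within each library (vertical axes from 0), with same-numbered replicates joined and mean ± SD beside the points. CBX1/CBX3 lay at 0.513 to 0.572 in WT and 0.726 to 0.793 in PARP3-/-, and CBX5/CBX3 also did not overlap, whereas the ratios without CBX3 overlapped.

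Replicates differed in a way shared by both genotypes. In replicate 1, SUV39H1, SUV39H2, CBX1 and CBX3 were the lowest of the 3 libraries in WT and also in PARP3-/- cells, and EHMT2, WIZ and SETDB1 were the highest in both. The distance of replicate 1 from the mean of replicates 2 and 3 was -0.58 and -0.66 on the log2 scale for SUV39H1 in WT and PARP3-/-, -0.74 and -0.49 for SUV39H2, -0.45 and -0.35 for CBX1, -0.31 and -0.25 for CBX3, and 0.45 and 0.40 for SETDB1. For SUV39H1, SUV39H2, CBX1 and SETDB1, these distances exceeded the difference between genotypes.

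The summed level of 19 genes of the S and G2/M phases of the cell cycle was low in the same libraries. It came to 3966, 7188 and 6838 CPM in WT replicates 1, 2 and 3 and to 4900, 6883 and 6766 CPM in PARP3-/- replicates 1, 2 and 3. The genotypes overlapped, with 0 of 19 called with genotype alone by edgeR (0 at an unadjusted p under 0.05, and 0 by DESeq2) and 3 higher with the block, namely the replication helicase genes MCM2, MCM5 and MCM7. Without replicate 1 of both genotypes, the block called 7 of the 19 lower and 3 higher, beside 15.4% and 14.5% of all tested genes, and 24.3% of all genes were called by the block over all libraries. The part of cell cycle state in the replicate differences was not tested.

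**Figure D4:**
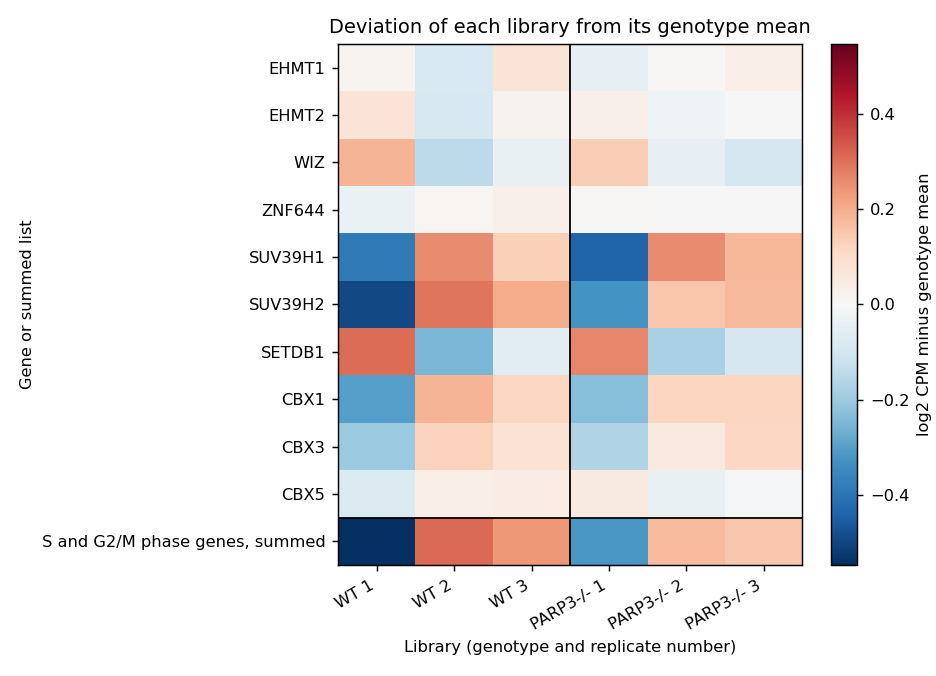
Log2 CPM of each library minus the mean of its genotype (colour scale, blue below and red above) for the 10 genes and for 19 summed S and G2/M phase genes. Replicate 1 of both genotypes was blue for SUV39H1, SUV39H2, CBX1, CBX3 and the cell cycle sum and red for SETDB1 and WIZ.

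Sequences just upstream of the RefSeq start site used are shown for members that were low together in replicate 1 (SUV39H1, SUV39H2, CBX1) and for a pair that varied little (EHMT2, CBX5), so that the motif letters counted in the next paragraph can be read in place. For CBX1 this start site lies downstream of the start of the MANE transcript, so its stretch lies within the gene. The SUV39H1 stretch also lies within its gene model, which starts further upstream, at chrX:48695554. The sequences come from RefSeq (GRCh38.p14) and are written 5′ to 3′ on the gene's strand. They are limited to the longest stretch of the 250 bases before the start that lies in no annotated exon. Capitals mark matches, on either strand, to the CCAAT box (CCAAT), the GC box (GGGCGG), E2F (TTTCCCGC or TTTGGCGC) or ETS (CCGGAAGT) letters. The stretches are chrX:48696484-48696733 (+) for SUV39H1, chr10:14878728-14878819 (+) for SUV39H2, chr17:48101199-48101267 (-) for CBX1, chr6:31897699-31897784 (-) for EHMT2 and chr12:54280134-54280192 (-) for CBX5.
SUV39H1: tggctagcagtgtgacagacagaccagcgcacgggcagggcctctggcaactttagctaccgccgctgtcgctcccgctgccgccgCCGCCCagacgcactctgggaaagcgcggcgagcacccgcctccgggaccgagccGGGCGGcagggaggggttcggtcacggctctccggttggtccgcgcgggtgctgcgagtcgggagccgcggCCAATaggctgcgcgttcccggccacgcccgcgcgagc
SUV39H2: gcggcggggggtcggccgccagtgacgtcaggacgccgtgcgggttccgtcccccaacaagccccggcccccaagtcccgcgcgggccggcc
CBX1: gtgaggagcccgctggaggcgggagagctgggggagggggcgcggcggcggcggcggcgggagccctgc
EHMT2: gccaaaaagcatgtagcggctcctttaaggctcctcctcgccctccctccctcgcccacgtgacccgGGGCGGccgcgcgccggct
CBX5: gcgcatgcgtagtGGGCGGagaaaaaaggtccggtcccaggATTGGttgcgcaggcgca

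Over the full 250 bases of all 10 members, a GC box was found in 7, a CCAAT box in 3 (ZNF644, SUV39H1 and CBX5) and an E2F match in 1 (ZNF644), and none held the ETS letters. Among the 35116 RefSeq promoters of the same length, 42.6% held the GC box, 32.0% the CCAAT box, 1.93% the E2F and 3.42% the ETS letters. None of the 4 genes low in replicate 1 held the E2F letters in this window. With 1.93% of all promoters holding them, their absence from 4 windows tells nothing about E2F at these genes. The CBX3 window lay wholly within annotated exons and is not printed. The start site used lay 292 bases downstream of the start of the MANE transcript for CBX1, and 302 bases upstream of it for CBX3.

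Levels between genes were compared per kilobase of exon, since longer transcripts collect more reads. Per kilobase of merged exons, CBX1 and CBX3 were highest (56.1 and 54.9 CPM per kilobase, mean of all 6 libraries), with overlapping ranges. Their order differed by genotype, CBX3 being above CBX1 in WT (61.8 and 54.2) and below it in PARP3-/- (47.9 and 58.1). Per kilobase of the MANE transcript CBX3 was above CBX1 in both (145 and 75.6 in WT, 113 and 81.0 in PARP3-/-). ZNF644 (25.3), CBX5 (18.2) and EHMT2 (16.5) followed, each above the next in every library. SUV39H2 (11.3), SUV39H1 (10.2) and SETDB1 (9.32) overlapped one another in this order, and EHMT1 (3.23) and WIZ (1.55) were lowest, without overlap. EHMT1 has many annotated exons outside its main transcript, 22188 merged bases against 5095 in the MANE transcript, and per kilobase of the latter it reached 14.1 and overlapped SETDB1 and SUV39H2. WIZ stayed the lowest member and CBX3 or CBX1 the highest with each of the 3 lengths tried.

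The proteins that work with these enzymes were followed in 7 lists with 61 genes in the table, of which 60 were tested. With genotype alone, 1 gene was lower and 0 were higher, and 4 had an unadjusted p under 0.05. Of all tested genes, 3.33% were lower, 1.36% were higher and 16.3% had an unadjusted p under 0.05. The same shares, and the 5.93% that DESeq2 called of its genes, stand beside the counts of each list below. With the block, 5 partner genes were lower and 8 were higher, or 13 of 60 beside 24.3% of all tested genes. Without replicate 1 of both genotypes these were 10 and 12, beside 29.9% of all genes. By list, with shared genes counted in each, they were 1 and 4 of 13 G9a partners and 3 and 1 of 7 in the SETDB1 list. Among HP1-binding proteins they were 2 and 1 of 10, among demethylases 1 and 2 of 11, and among further methyltransferases 0 and 1 of 3. For PRC2 they were 1 and 3 of 11, and for DNA methylation 2 and 1 of 7. The median log2 fold change over the 60 genes was 0.01, beside -0.01 for all tested genes.

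ATF7IP2 (ENSG00000166669, chr16:10326434-10483638) was the gene lower with genotype alone. It is a paralogue of ATF7IP, the cofactor that protects SETDB1 and keeps it in the nucleus. WT replicates held 174, 122 and 113 counts, or 4.89, 2.87 and 2.79 CPM, and each PARP3-/- replicate held 1 count. No library of the genotypes came near one of the other. Scaled by library totals, the summed counts of 409 and 3 give a ratio of 131-fold (exact binomial 95% interval 44.5 to 638, counting error only), and the fitted log2 fold change was -6.86 (SE 0.43, adjusted p = 0.00039, edgeR). ATF7IP itself, at 65.6 ± 4.60 CPM in WT and 60.1 ± 1.23 CPM in PARP3-/- (SD, n = 3), did not pass (log2 fold change -0.10, adjusted p = 0.659, edgeR).

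In the SETDB1, KAP1 and HUSH list, PPHLN1, which encodes the HUSH subunit periphilin, was lower with the block (-0.17, adjusted p = 0.0322, edgeR) and not with genotype alone (adjusted p = 0.655). ATF7IP2 and PPHLN1 were the 2 called of 7 with the block, beside 24.3% of all genes. Without replicate 1 of both genotypes, 3 of the 7 were lower and 1 was higher, where 15.4% of all tested genes were lower and 14.5% higher.

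Of 13 partners and recruiters of G9a, 0 were called with genotype alone (0 at an unadjusted p under 0.05, and 0 by DESeq2). With the block 3 were higher, where 11.8% of all tested genes were higher. The 3 partners were LIG1, the replication ligase that G9a methylates (0.29, adjusted p = 0.00318), UHRF1, which reads methylated H3K9 and hemimethylated DNA (0.32, adjusted p = 0.00411), and MGA, of the PRC1.6 complex (0.21, adjusted p = 0.00993), all with edgeR. LIG1 and UHRF1 were also low in replicate 1 of both genotypes, UHRF1 with 48.2, 131.7 and 114.6 CPM in WT and 68.6, 149.2 and 132.8 CPM in PARP3-/- cells, so the groups overlapped while each same-numbered pair was higher in PARP3-/-.

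Among 10 HP1-binding proteins, CHAF1B, a subunit of the CAF-1 histone chaperone, was higher with the block (0.32, adjusted p = 0.00812, edgeR), and with genotype alone 0 were called (0 at an unadjusted p under 0.05, and 0 by DESeq2). Of 11 H3K9 demethylases, the block called KDM4A (0.18, adjusted p = 0.0227) and KDM7A (0.26, adjusted p = 0.0229) higher, and genotype alone called 0 (0 at an unadjusted p under 0.05, and 0 by DESeq2). For both lists, the share of all tested genes that the block called higher was 11.8%.

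Of the further H3K9 methyltransferase genes, SETDB2, PRDM2 and MECOM were tested and none passed in either model. PRDM16 had too few counts for edgeR's filter and was called lower by DESeq2, with 0.478, 0.165 and 0.222 CPM in WT and 0, 0 and 0.0262 CPM in PARP3-/- cells.

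PRC2, the complex that methylates lysine 27 of histone H3, had 11 genes tested. With genotype alone 0 were called (2 at an unadjusted p under 0.05, and 2 by DESeq2), whereas with the block JARID2 (0.34, adjusted p = 0.00404) and the catalytic subunit EZH2 (0.20, adjusted p = 0.0161) were higher and AEBP2 (-0.32, adjusted p = 0.00127) was lower, by edgeR. JARID2 measured 83.6, 69.3 and 79.4 CPM in WT and 92.7, 98.8 and 95.6 CPM in PARP3-/- cells, and AEBP2 59.3, 60.7 and 63.4 CPM and 49.9, 46.4 and 48.5 CPM. Neither gene's groups overlapped, as for 23.1% of all tested genes, and these accessory subunits of one PRC2 subtype moved in opposite directions. The block called 24.3% of all tested genes.

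In the DNA methylation list of 7, which shares DNMT1 and UHRF1 with the G9a partners, the block called TET1, a 5-methylcytosine oxidase (-0.48, adjusted p = 0.00586), and the methyltransferase gene DNMT3B (-0.35, adjusted p = 0.0184) lower, by edgeR, and UHRF1 higher, as given for the G9a partners. With genotype alone 0 were called (1 at an unadjusted p under 0.05, and 1 by DESeq2). TET1 gave 7.36, 6.98 and 7.34 CPM in WT and 5.73, 4.93 and 4.63 CPM in PARP3-/- cells, without overlap, as for 23.1% of all tested genes. Of all tested genes, the block called 12.5% lower and 11.8% higher.

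**Figure D5:**
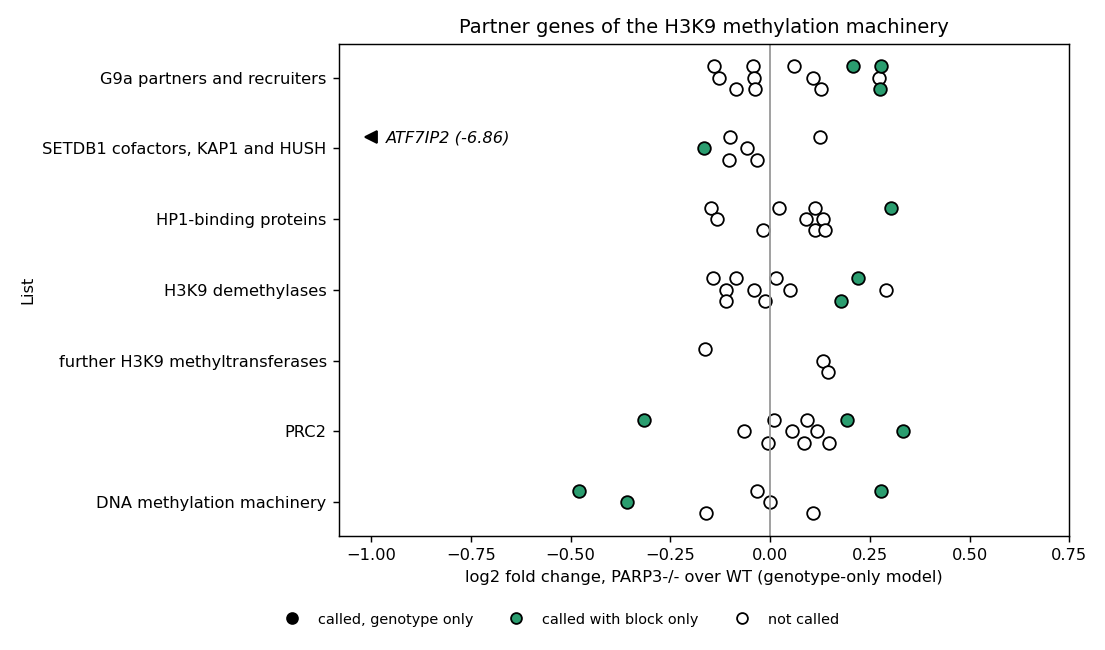
Log2 fold change of PARP3-/- over WT (horizontal axis) in the model with genotype alone for the tested genes of 7 partner lists, black where called with genotype alone, green where called with the replicate block only and white otherwise. ATF7IP2, at -6.86, is drawn as an arrow at the left edge, and the other genes lie between -0.48 and 0.33.

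The study linked 12 genes to G9a, partly from these libraries, so their direction is not independent evidence. It describes WNT10B, FBLN5, ACAN and LYN as extracellular matrix genes that rose in WT cells when G9a was silenced. The others it names as regulated by both PARP3 and G9a. With genotype alone 6 of the 10 tested were lower and 0 were higher. By p the first were NFASC (17.1 ± 0.646 CPM in WT and 0.469 ± 0.148 in PARP3-/-), PARVB (2.81 ± 0.0211 and 0.214 ± 0.0865), ACAN (4.26 ± 1.30 in WT and 0 counts in each PARP3-/- library) and WNT10B (0.581 ± 0.170 and 0.0160 ± 0.0140; SD, n = 3). None of the 4 genes of the G9a complex was called in either model.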

How the data were processed

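Counts of total, rRNA-depleted RNA from 3 WT and 3 PARP3-/- LN229 libraries were used, grouped by genotype and replicate number from the labels. The labels give the molecule as polyA RNA, while the extraction protocol describes a total RNA kit. The deposited counts are raw reads per Ensembl gene, which the authors made with cutadapt 1.10, Bowtie2 2.2.8 for rRNA removal, STAR 2.5.3a on hg38 and HTSeq 0.6.1p1 in union mode, which leaves out reads on overlapping genes. The strand setting of the counting is not given in the sources used here. The deposited table also lists the median transcript length per gene, an annotation value (other unit) used as one of the lengths. A further 12 columns of normalized values per sample were not used, nor were the columns of the authors' own comparison (fold change, p-value, adjusted p-value).

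The test was edgeR 4.0.16 in R 4.3.3 (quasi-likelihood, TMM, filterByExpr with a minimum count of 10, genotype only) over 17144 genes with Benjamini-Hochberg adjustment, called at 0.05. Standard errors and 95% intervals were worked out from each fold change and its F value. Alternatives were DESeq2 1.42.0, median-of-ratios size factors, no filter, a mean count of at least 50, a stricter threshold, the replicate block and each library left out. The block without replicate 1 of both genotypes was added after the data had been seen. Same-numbered libraries deviated together from their genotype means (gene-wise correlation of 0.632 for replicate 1, 0.466 for replicate 2 and 0.209 for replicate 3). Each was over 0.1, the limit set for pairing, and libraries of different number gave -0.580 to 0.361. WT replicate 3 was closer to PARP3-/- replicate 2 (0.238) than to its own number, and PARP3-/- replicate 3 was closer to WT replicate 2 (0.361). With replicate 1 apart, centring on the genotype mean can by itself make replicates 2 and 3 deviate together. These values therefore do not show that replicates 2 and 3 pair by number, which both block fits assume. No 2 libraries of a genotype agreed within sampling noise, the closest of these, PARP3-/- replicates 2 and 3, differing by a chi-square of 4.08 for each degree of freedom. The study calls the replicates independent experiments without describing separate cultures, and p-values measure the spread between these samples. Those of the block without replicate 1 rest little on that spread. Paralogue ratios used two-sided exact permutation tests.

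Depth was 29692065 to 46010369 counts, and 3 counts (0.0652 to 0.101 CPM) were taken as the smallest number told from no reads, for counting error only. Exon lengths came from GENCODE 44 (hg38), promoter windows from RefSeq. On simulated data, the genotype-only test recovered 17 of 100 genes with a true absolute log2 fold change of 0.5 and 97 of 100 at 1. It made 7 false calls among 16870 genes. All members had fold changes smaller than 0.5 on this scale, so a member not called is not shown to be unchanged. The members and lists were chosen with earlier results of these data known. Genes named are the 10 members, PARP3, the promoter neighbours of CBX3 and CBX5, up to 4 called genes of smallest p per partner list, the 3 genes most like EHMT2, and up to 4 of the genes linked to G9a. Replication genes and PRDM16 were named after their values were seen.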

Additional observations from a re-analysis of the deposited data

How the results depend on the processing

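The replicate block called 1 member lower and 5 lower and 8 higher partner genes; with replicate 1 of both genotypes also left out, 2 members were lower and 1 was higher, and 10 partner genes were lower and 12 higher, a fit with few residual degrees of freedom. DESeq2 called 4 partner genes lower and 1 higher, and 2 were lower with no filter and also with a mean count of at least 50. Leaving out single libraries called 0 members and 1 to 2 lower and 0 higher partner genes, the 2 without WT replicate 1. The causes of these differences were not tested. Log2 fold changes then ranged from -0.22 to 0.16 for SUV39H1, -0.33 to 0.047 for SUV39H2, -0.019 to 0.25 for CBX1 (below 0 without WT replicate 1), 0.014 to 0.29 for SETDB1, -0.28 to -0.13 for WIZ and -0.45 to -0.24 for CBX3. SUV39H1 turned positive without PARP3-/- replicate 1 or WT replicate 2 or 3, and SUV39H2 without PARP3-/- replicate 1 or WT replicate 2. Over the alternatives, 110 of 120 fold changes of members kept their direction and their side of the threshold, 6 changed sign and 4 came to pass (CBX3 under both block fits, SUV39H2 and SETDB1 under the second).

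On the log2 scale the ratios ranged, without single libraries, from 0.42 to 0.50 for CBX1/CBX3, 0.19 to 0.36 for CBX5/CBX3, -0.31 to -0.06 for CBX5/CBX1, -0.059 to 0.0038 for EHMT1/EHMT2 (above 0 without PARP3-/- replicate 1) and -0.014 to 0.095 for SUV39H1/SUV39H2 (below 0 without PARP3-/- replicate 2). The mean of same-numbered differences, a replicate block for ratios, is by construction the same (0.47 for CBX1/CBX3 and 0.30 for CBX5/CBX3), and an exact sign-flip test over 3 pairs cannot give a p below 0.25.

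The level per kilobase depends on the length chosen. With the MANE transcript, the CPM per kilobase was 129 for CBX3, 78.3 for CBX1, 34.7 for ZNF644, 30.3 for EHMT2, 23.7 for CBX5, 15.5 for SETDB1 and 14.1 for EHMT1. With the authors' median transcript length it was 263 for CBX3, 246 for CBX1, 230.0 for ZNF644, 201 for CBX5, 103 for SETDB1, 102 for EHMT1, 49.6 for EHMT2, 32.0 for SUV39H2, 18.0 for SUV39H1 and 4.05 for WIZ. Each member had 465 counts or more in every library.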
